A study of Rattus norvegicus with 4 samples.

Results

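The hepatic amino acid transporters were examined as a set of 10 named genes, *Slc7a1*, *Slc7a2*, *Slc7a5*, *Slc7a11*, *Slc3a2*, *Slc38a2*, *Slc38a3*, *Slc38a4*, *Slc43a1*, and *Slc25a13*. Each was found by its exact symbol among the 16992 annotated genes of the liver tables, and 9 of the 10 were found in all 4 libraries. *Slc25a13*, which encodes the mitochondrial aspartate/glutamate carrier citrin, was not analysed here. The rats were male wild-type Wistar animals, 6 weeks old when purchased, and had been without food and water for 2 hours before anesthesia. A rat inhaled 4.5% sevoflurane or 6% desflurane for 6 hours, and the control of each agent inhaled the same agent for less than 1 minute, until it lost consciousness. All of them, the controls included, were therefore exposed to an anesthetic. The 6 hour rats also went without food during the hours of anesthesia. In every ratio of a 6 hour library to a control, the agent cannot be told apart from this longer time without food. RNA of the left lateral liver lobe was sequenced from 1 rat per condition, so that no difference has a replicate check and no p-value was calculated.

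Amino acids cross the hepatocyte membrane through carriers that differ in what they transport and in what drives them. System A and system N carriers (the Slc38 family) use the sodium gradient to take up small neutral amino acids or glutamine and histidine, Slc7a1 and Slc7a2 carry arginine, lysine, and ornithine, and Slc43a1 lets large neutral amino acids pass along their gradient. Slc7a5 and Slc7a11 are light chains that reach the membrane only when linked to the heavy chain Slc3a2, where Slc7a5 exchanges large neutral amino acids and Slc7a11 exchanges cystine for glutamate. The transcription factor ATF4, which is induced when amino acids are scarce or the endoplasmic reticulum is stressed, is known to activate several of these genes through a composite C/EBP-ATF element.

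The promoter sequences are shown because 4 of these genes, *Slc7a1*, *Slc7a5*, *Slc7a11*, and *Slc3a2*, had higher transcript levels with sevoflurane together. RefSeq windows of the GRCr8 assembly, from 250 bases upstream to 50 bases downstream of the annotated start, were matched to 8 of the 10 genes by symbol and comprised 9 windows, since *Slc3a2* has 2 starts. *Slc7a2* and *Slc38a3* had no entry. Both strands were searched for the core TGATGNAA of the composite C/EBP-ATF element and for the core TGACNNNGC of the antioxidant response element. The first was present in 3.98% of all 33469 windows and the second in 12.1%. Among the transporters, the composite core was found in the window of *Slc7a1*, from base -30 upstream of the start, and this was its sole match in the 9 windows. The antioxidant core was found in the windows of *Slc7a1*, *Slc3a2*, and *Slc38a2*, from bases -107, -45, and -50. No match of either core was found in the windows of *Slc7a5*, *Slc7a11*, *Slc38a4*, *Slc43a1*, and *Slc25a13*, or in that of the other start of *Slc3a2*. Sequence outside these windows was not searched, so a window without a match does not show that a gene lacks the element. The 250 bases upstream of the start are printed 5′ to 3′ for *Slc7a1* (chr12:11664238-11664487, plus strand) and for *Slc7a5* (chr19:66872413-66872662, minus strand), and stretches of 29 bases around the matches are printed for *Slc3a2* (chr1:215039697-215039725, minus strand, its downstream start) and *Slc38a2* (chr7:129742651-129742679, minus strand). Capitals mark the matched cores, and the cores in *Slc7a1* do not overlap. The antioxidant cores of *Slc7a1* and *Slc3a2* lie on the strand opposite to the printed one. Their capitals are therefore the reverse complement of TGACNNNGC. The composite core of *Slc7a1* and the core of *Slc38a2* lie on the printed strand.
Slc7a1: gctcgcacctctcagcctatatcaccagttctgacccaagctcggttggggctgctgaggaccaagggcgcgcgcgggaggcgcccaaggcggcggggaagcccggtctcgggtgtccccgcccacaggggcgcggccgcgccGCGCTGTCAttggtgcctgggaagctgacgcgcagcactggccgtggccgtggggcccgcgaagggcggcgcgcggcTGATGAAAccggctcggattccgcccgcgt
Slc7a5: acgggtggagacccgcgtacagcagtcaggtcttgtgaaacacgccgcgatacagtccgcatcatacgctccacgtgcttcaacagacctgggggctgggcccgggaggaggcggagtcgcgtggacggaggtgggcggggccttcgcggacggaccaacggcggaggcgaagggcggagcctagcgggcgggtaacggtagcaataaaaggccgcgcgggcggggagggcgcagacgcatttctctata
Slc3a2: gcggatcgggGCGGAGTCAtgggtcactt
Slc38a2: ccccgcccacTGACGCGGCtccaggccgc

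The aligned sequence amounted to between 4.47 and 5.40 Gb per library, and between 9474 and 9695 genes had a TPM value higher than 2. TPM is a relative transcript level that is corrected for transcript length and library size, so levels can be compared between genes. Defining hepatocyte genes were abundant in all libraries, with the 10 of them adding up to TPM values between 131368 and 148984. The sevoflurane control stood apart in 11 pancreatic acinar genes, which added up to 64.7 in this library and to between 16.6 and 19.1 in the others, where *Ctrb1*, *Pnlip*, *Prss1*, and *Clps* were listed at 0. The sevoflurane 6 hour library had the lowest sum of 7 macrophage genes, 317 compared with 410 to 516, and of 7 lymphocyte genes, 3.35 compared with 4.90 to 8.86. The sum of 5 erythroid genes was 36.5 after 6 hours of desflurane and between 60.8 and 87.5 in the other libraries. The part of these cell types in the results was not tested, and in whole liver RNA a smaller number of cells cannot be told apart from less RNA per cell. Over 9136 genes that exceeded a TPM value of 2 in each library, log2 ratios to the respective control had a median of 0.05 for sevoflurane and 0.12 for desflurane.

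The 9 transporters covered a wide range of levels, and their order was the same in the 4 libraries. *Slc38a3*, *Slc38a4*, and *Slc7a2* were the most abundant, and together they held between 86.0% and 91.8% of the summed TPM value of the 9 genes. *Slc38a3* alone held between 48.6% and 54.6%, and it ranked between 95 and 131 among all genes of a library. *Slc7a1* and *Slc7a11* were the least abundant and exceeded a TPM value of 2 in the sevoflurane 6 hour library alone. The summed TPM value of the 9 genes was 1594 (control) and 2066 (6 hours) for sevoflurane, and 1368 and 1947 for desflurane. *Slc38a3*, *Slc38a4*, and *Slc7a2* made up most of the higher sum with both agents.

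**Figure D1:**
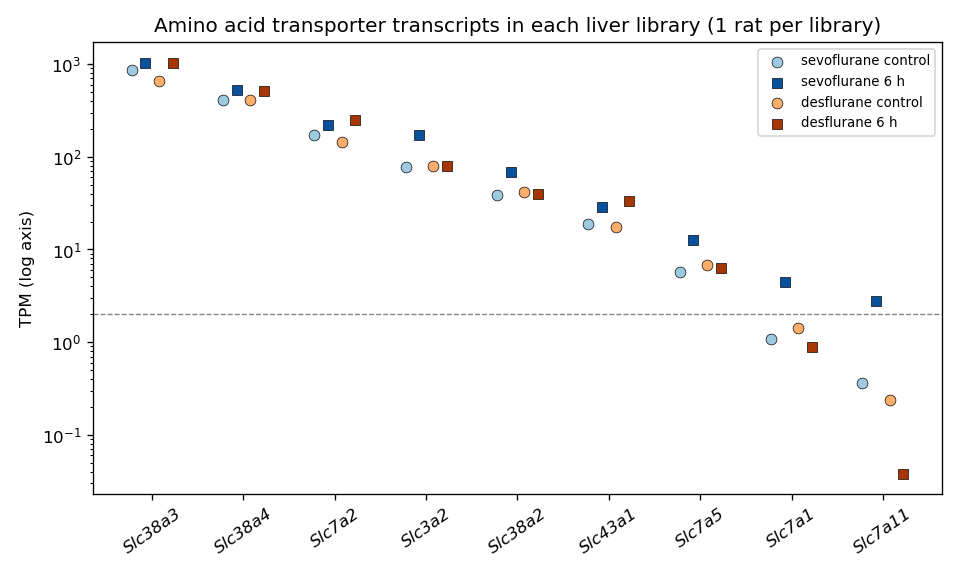
TPM values of the 9 transporter genes (log axis) in each of the 4 libraries, with circles for the controls, squares for 6 hours of anesthesia, and a dashed line at the TPM limit of 2. The sevoflurane 6 hour squares lie above both control circles for all 9 genes, and the desflurane 6 hour squares do so for 4 of them.

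Genes were counted as up with an agent when the TPM value was higher than 2 after 6 hours and more than 2-fold that of the respective control, and as down in the reverse case, which is the rule of the study. With sevoflurane, 4 of the 9 transporters were up, compared with 2.23% of the 9754 genes that could be counted. These were the heavy chain gene *Slc3a2*, the light chain genes *Slc7a5* and *Slc7a11*, and the arginine and lysine carrier gene *Slc7a1*. None of the 9 was down, compared with 3.3% of all genes. *Slc7a11* and *Slc7a1* could be counted only through the 6 hour library, so up was their only possible call. The set was also chosen with earlier results of these data known, which limits the comparison with all genes. With desflurane, none of the 7 transporters with a sufficient TPM value was up or down, compared with 2.79% and 1.48% of the 9855 genes that could be counted. With the controls exchanged between the agents, *Slc3a2*, *Slc7a1*, and *Slc7a11* were still up with sevoflurane (2.52% of all genes) and *Slc7a5* was 1.84-fold higher. None was down with sevoflurane (2.59%), and again none was up (2.84%) or down (1.58%) with desflurane. Between the 2 controls, no transporter passed the limits in either direction, compared with 1.17% of the genes in each direction. On the scale of log2 (TPM + 1), the 9 genes had a median change of 0.80 with sevoflurane and of -0.02 with desflurane, and all genes with a TPM value higher than 2 in any library had medians of 0.05 and 0.11.

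The heavy chain transcript *Slc3a2* and the light chain transcripts *Slc7a5* and *Slc7a11* were higher after sevoflurane. *Slc3a2* (chr1:224906566-224921029 of rn6, minus strand), which encodes the heavy chain 4F2hc that brings the light chains to the membrane, had TPM values of 77.8 (control) and 172 (6 hours) for sevoflurane, and of 80.0 and 78.8 for desflurane. Only the sevoflurane 6 hour library was high, and the remaining 3 libraries lay within 3% of each other. The level after sevoflurane was 2.22-fold that of its own control and 2.16-fold that of the desflurane control, whereas the controls differed 1.03-fold. *Slc7a5* (chr19:54693959-54722563, minus strand), the light chain LAT1 that imports leucine and related amino acids, had TPM values of 5.77 (control) and 12.6 (6 hours) for sevoflurane, and of 6.86 and 6.29 for desflurane. It was 2.19-fold higher with sevoflurane than in its own control, and the controls differed 1.19-fold. *Slc7a11* (chr2:139453774-139528162, minus strand), the light chain xCT that imports cystine, was nearly silent in the other libraries, with TPM values of 0.366 and 0.235 in the respective controls of sevoflurane and desflurane and 0.0380 after 6 hours of desflurane, whereas the sevoflurane 6 hour library had 2.81. The average read coverage behind these values was 0.658, 0.441, 0.0640, and 4.75. The ratio to the own control was 7.67 with sevoflurane, and 11 of the 9754 genes had a larger one, but this ratio rests on a control in which fewer than 1 read covered an average base. No ratio is given for desflurane, because fewer than 1 read covered an average base in both of its libraries.

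The heavy chain transcript was between 11.7 and 13.6 times as abundant as that of *Slc7a5* in the 4 libraries, and this ratio was nearly the same in the sevoflurane libraries, 13.5 in the control and 13.6 at 6 hours. *Slc3a2* and *Slc7a5* were thus higher by similar factors in that comparison. When all 6 light chain genes that pair with Slc3a2 (*Slc7a5*, *Slc7a6*, *Slc7a7*, *Slc7a8*, *Slc7a10*, and *Slc7a11*) were summed, their TPM value was 14.7 (control) and 25.6 (6 hours) for sevoflurane, and 17.9 and 12.9 for desflurane. *Slc7a7*, the light chain of the y+L carrier, was the second most abundant of them in the sevoflurane libraries, and its TPM values are given with the other transporters.

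The carriers for arginine and lysine differed from each other in level and in pattern. *Slc7a2* (chr16:54460067-54513349, minus strand), which encodes CAT2 and is the main cationic amino acid carrier of hepatocytes, had TPM values of 173 (control) and 220 (6 hours) for sevoflurane, and of 144 and 252 for desflurane. Both 6 hour libraries were higher than both controls, by 1.27-fold with sevoflurane and 1.75-fold with desflurane relative to the respective controls, and the controls differed 1.20-fold. *Slc7a1* (chr12:8032775-8108972, plus strand), which encodes CAT1, the carrier of most other tissues, had TPM values of 1.08, 4.50, 1.40, and 0.880 in the same order. The sevoflurane 6 hour library was the only high value, 4.17-fold that of its own control and 3.21-fold that of the desflurane control, and the desflurane 6 hour library was the lowest of the 4 by the annotated row. By the largest assembled row, which StringTie built from the same reads, the desflurane 6 hour library had a TPM value of 2.45 and was higher than the controls at 1.25 and 1.64, so this direction with desflurane depended on the row used. These rows are pieces that cover different parts of the gene in each library, so their values are not strictly comparable. The other pieces after desflurane had TPM values of 1.55 and 1.01. The controls differed 1.30-fold, and their coverage was 1.94 and 2.63. Among 9754 genes, 35 had a larger ratio with sevoflurane than *Slc7a1*. The *Slc7a2* transcript was 161 (control) and 48.9 (6 hours) times as abundant as that of *Slc7a1* for sevoflurane, and 103 and 286 times for desflurane.

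The Slc38 carriers also fell into separate patterns. *Slc38a2* (chr7:138088654-138100823, minus strand), which encodes SNAT2, a system A carrier known for its response to amino acid shortage, had TPM values of 39.1 (control) and 68.5 (6 hours) for sevoflurane, and of 42.1 and 39.9 for desflurane. As with *Slc3a2*, only the sevoflurane 6 hour library was high. The difference was 1.75-fold from its own control and 1.63-fold from the desflurane control, which did not pass the 2-fold limit, and the controls differed 1.08-fold. *Slc38a4* (chr7:138461601-138512952, minus strand), which encodes the liver-enriched system A carrier SNAT4, had TPM values of 407, 527, 411, and 514 in the same order. The controls were nearly equal (1.01-fold), and both 6 hour libraries were higher, 1.29-fold with sevoflurane and 1.25-fold with desflurane. *Slc38a3* (chr8:116406289-116422328, minus strand), which encodes the system N glutamine carrier SNAT3, had TPM values of 870, 1029, 664, and 1021. The 6 hour libraries were again higher than both controls, but the controls differed 1.31-fold, and the ratio with desflurane was 1.54 to its own control and 1.17 to the sevoflurane control. *Slc38a2* and *Slc38a4* lie on the same strand of chromosome 7, separated by 361 kb that hold no other annotated gene of the tables. *Slc38a1*, on the other side of *Slc38a2*, had TPM values between 0.555 and 0.764.

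*Slc43a1* (chr3:72238796-72265023, plus strand), which encodes the large neutral amino acid carrier LAT3, had TPM values of 18.9 (control) and 28.9 (6 hours) for sevoflurane, and of 17.5 and 33.5 for desflurane. Both 6 hour libraries were higher than both controls. The ratios to the respective controls were 1.53 with sevoflurane and 1.92 with desflurane, close to but below the limit, and the controls differed 1.08-fold. *Slc43a1* is also known to be transcribed in the pancreas, and its level in the sevoflurane control, where acinar genes were found, was 18.9 compared with 17.5 in the desflurane control.

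**Figure D2:**
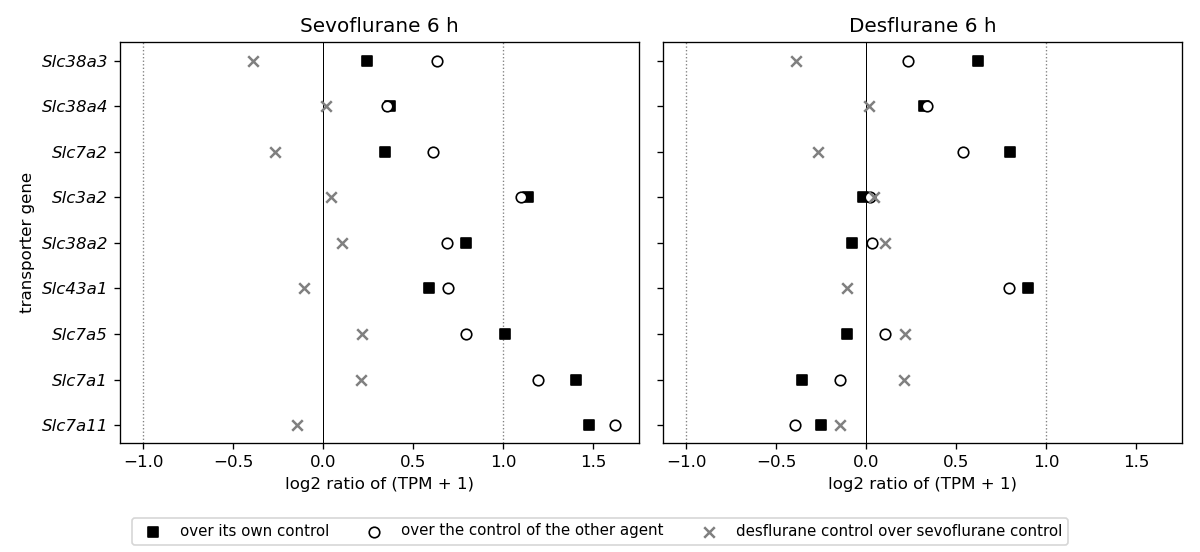
Log2 ratios of the TPM values plus 1 for each transporter, on the left for the sevoflurane 6 hour library and on the right for the desflurane 6 hour library, over the own control (filled squares), over the control of the other agent (open circles), and for the desflurane control over the sevoflurane control (crosses); dotted lines mark a 2-fold difference. All sevoflurane squares and circles lie to the right of 0, and the desflurane squares do so for *Slc38a3*, *Slc38a4*, *Slc7a2*, and *Slc43a1*.

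The position of the 6 hour libraries relative to both controls was compared for the 9 genes. Sevoflurane was higher than both controls for all 9 transporters, compared with 46.1% of the 9993 genes with a TPM value higher than 2 in any library. Desflurane was higher than both controls for 4 (53.7% of all genes) and lower than both for *Slc7a1* and *Slc7a11* (23.2%). Of these, *Slc7a1* was higher than both by its largest assembled row, a piece that differs in span between libraries. Both 6 hour libraries were higher than both controls for *Slc38a3*, *Slc38a4*, *Slc7a2*, and *Slc43a1*, compared with 33.3% of all genes, a share near that of 4 of 9. The genes of this set depended on the values used. With FPKM in place of TPM it lost *Slc38a3*, with assembled rows added it lost *Slc7a2* and gained *Slc7a1*, and with the largest assembled row it gained *Slc7a1*. Only assembled rows within the annotated span were added. That of *Slc7a2* after 6 hours of desflurane reached beyond the span and was left out, whereas those of the controls were added. The loss of *Slc7a2* came from this handling. The remaining 5 genes, *Slc3a2*, *Slc7a5*, *Slc7a11*, *Slc7a1*, and *Slc38a2*, were higher than both controls with sevoflurane but not with desflurane by the annotated rows, compared with 12.8% of all genes. Of these, *Slc3a2*, *Slc7a1*, and *Slc7a11* were more than 2-fold higher in the sevoflurane 6 hour library than in each of the other 3 libraries, compared with 0.31% of all genes. *Slc7a1* and *Slc7a11* exceeded a TPM value of 2 in the sevoflurane 6 hour library alone. They entered these counts through that library, which favours a position above the others. After the values were scaled by the median of ratios over genes, which removes the median shift of the libraries, the ratio with desflurane was 1.60 for *Slc7a2*, 1.41 for *Slc38a3*, 1.14 for *Slc38a4*, and 1.76 for *Slc43a1*, and 0.903 for *Slc3a2* and 0.867 for *Slc38a2*.

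When the 6 hour libraries were compared directly, 4 of the 9 transporters were more than 2-fold lower with desflurane than with sevoflurane (1.17% of the 9829 genes that could be counted), and none was more than 2-fold higher (2.76%). The 4 genes were those that were up with sevoflurane, and the sevoflurane 6 hour library enters both comparisons. *Slc7a1* and *Slc7a11* could again be counted only through that library. The desflurane level was 0.457 of the sevoflurane level for *Slc3a2*, 0.497 for *Slc7a5*, and 0.195 for *Slc7a1*, and *Slc7a11* was close to absent with desflurane at a coverage of 0.0640. *Slc38a2* was at 0.582 of the sevoflurane level. In contrast, *Slc38a3* and *Slc38a4* were at 0.992 and 0.976, and *Slc7a2* and *Slc43a1* were 1.14-fold and 1.16-fold higher with desflurane. With 1 rat per agent, a difference between agents cannot be told apart from a difference between rats.

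**Figure D3:**
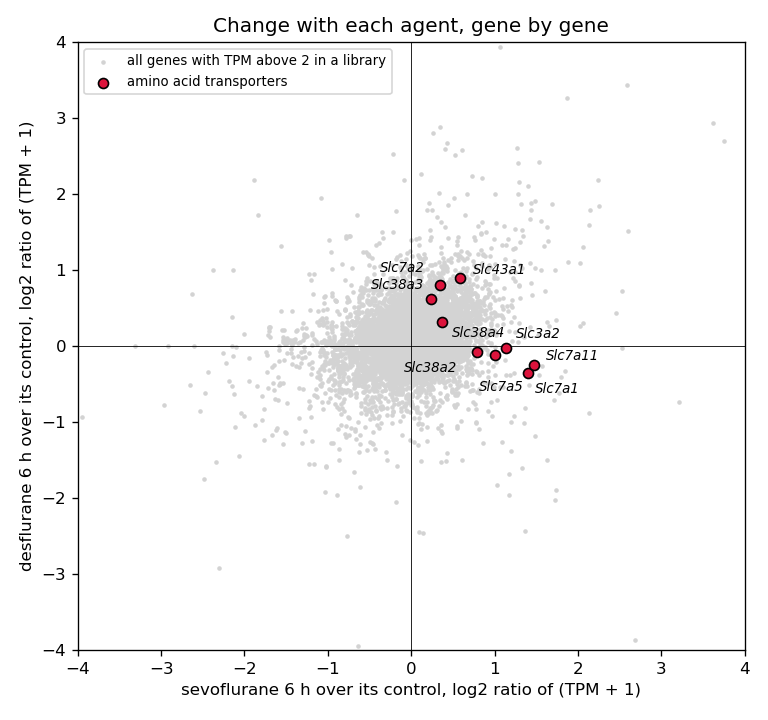
Log2 ratios of the TPM values plus 1 to the respective control, with sevoflurane on the x axis and desflurane on the y axis, for 9993 genes with a TPM value higher than 2 in any library (grey; 6 lie outside the axes) and the 9 transporters (red). *Slc3a2*, *Slc7a5*, *Slc38a2*, *Slc7a1*, and *Slc7a11* lie to the right and below 0 on the y axis, and the other 4 lie to the right and above it.

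For each transporter that was up, the genes with the most similar pattern were searched among the same 9136 genes, by the Euclidean distance of log2 TPM values centred on their mean over these libraries. The closest to *Slc7a1* were *Phgdh* (distance 0.21), *Psat1* (0.22), and *Adm2* (0.28), of which the first 2 encode enzymes of serine synthesis. *Slc7a1* itself lay below a TPM value of 2 in both controls and after desflurane. Its direction with desflurane depended on the row used, so these distances rest on low values. The closest to *Slc3a2* were *Paqr4* (0.06) and *S100a6* (0.17), followed by its partner *Slc7a5* (0.18). The closest to *Slc7a5* were *Sfmbt2*, *Ogfod1*, and *Sult1e1*, all at 0.17. For *Slc7a11*, the smallest distance was 2.79 (*Esd*), followed by *Noct* (2.84) and *Adm2*. The search held only genes with a TPM value higher than 2 in each library, whereas *Slc7a11* lay far below this limit in both controls and after desflurane. Its distances rest on these low values, for which very few reads covered the gene. The search therefore cannot decide whether another gene shares the pattern of *Slc7a11*. With 4 libraries, many genes can lie near each other by these distances, and they are given as a description.

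A list of 48 other amino acid transporters of the plasma membrane, lysosome, and mitochondria had 46 genes in the tables, of which 26 had a TPM value higher than 2 in any library. Of these, 1 was up with sevoflurane and none was down (2.23% and 3.3% of all genes). With desflurane, 2 were up and 1 was down (2.79% and 1.48%). On the scale of log2 (TPM + 1), the 26 genes had a median change of -0.01 with sevoflurane and of 0.13 with desflurane. All genes with a TPM value higher than 2 in any library had medians of 0.05 and 0.11. Of the 26 genes, 13 were higher and 13 lower with sevoflurane. *Slc25a22*, a mitochondrial glutamate carrier, was up with both agents. Its TPM values were 65.7 (control) and 166 (6 hours) for sevoflurane and 56.6 and 117 for desflurane, and its ratio to the control of the other agent was 2.93 with sevoflurane and 1.77 with desflurane. *Slc1a2*, a glutamate carrier of the hepatocytes around the central vein, was up with desflurane, but its TPM values of 14.4, 12.6, 6.51, and 15.9 show that the desflurane control was the low library, and the ratio to the sevoflurane control was 1.11. *Slc7a7* was down with desflurane, with TPM values of 5.10, 5.69, 7.05, and 2.94, and the ratio to the sevoflurane control was 0.577.

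Of the 5 most abundant genes of this list, 3 were mitochondrial, including *Slc25a22*. *Slc25a15*, the ornithine carrier of the urea cycle, had TPM values of 140, 227, 143, and 187, and it was 1.62-fold higher with sevoflurane and 1.30-fold higher with desflurane. *Slc6a13*, *Sfxn1*, and *Slc6a9*, which carry GABA and taurine, serine into mitochondria, and glycine, respectively, had ratios between 0.842 and 1.13 to the respective controls.

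Genes known as targets of ATF4 were examined because several of the transporters belong to this group. Whether ATF4 acted on any of these genes was not tested. The list held 38 other genes, of which 34 were in the tables. With sevoflurane, 12 of them were up and none was down (2.23% and 3.3% of all genes). With desflurane, 1 was up (*Trib3*) and 4 were down (2.79% and 1.48%). *Trib3* was up with both agents, 3.93-fold with sevoflurane and 2.25-fold with desflurane. With the controls exchanged, 8 were up and 2 down (*Atf3* and *Cth*) with sevoflurane, compared with 2.52% and 2.59% of all genes. With desflurane, 2 were up (*Trib3* and *Fgf21*) and 1 down (*Mthfd2*), compared with 2.84% and 1.58%. Between the controls, 25 of the 32 genes that exceeded a TPM value of 2 in any library were higher in that of desflurane. The median log2 (TPM + 1) difference of the desflurane control from the sevoflurane control was 0.16 for these genes. For all genes that exceeded a TPM value of 2 in any library it was -0.02. The median log2 (TPM + 1) change of these 32 genes was 0.61 with sevoflurane and -0.16 with desflurane, and with the control of the other agent it was 0.46 and 0.02. The largest ratios with sevoflurane were those of *Fgf21*, a fasting hormone of the liver, for which TPM values went from 12.2 (control) to 121 (6 hours), and of *Mthfd2*, a mitochondrial folate enzyme, with 3.53 and 18.8. *Fgf21* differed between the controls, and its ratio to the desflurane control was 2.94. With desflurane, *Chac1* and *Mthfd2* had the largest decreases of the genes that were down, from 3.26 to 1.26 and from 3.46 to 1.42. The most abundant genes of the list were *Atf5*, a transcription factor, with TPM values of 504, 809, 583, and 465, and *Cth*, which makes cysteine from cystathionine, with 405, 207, 420, and 314. *Cth* was lowest in the sevoflurane 6 hour library, at 0.512 of its own control, which did not pass the limit.

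**Figure D4:**
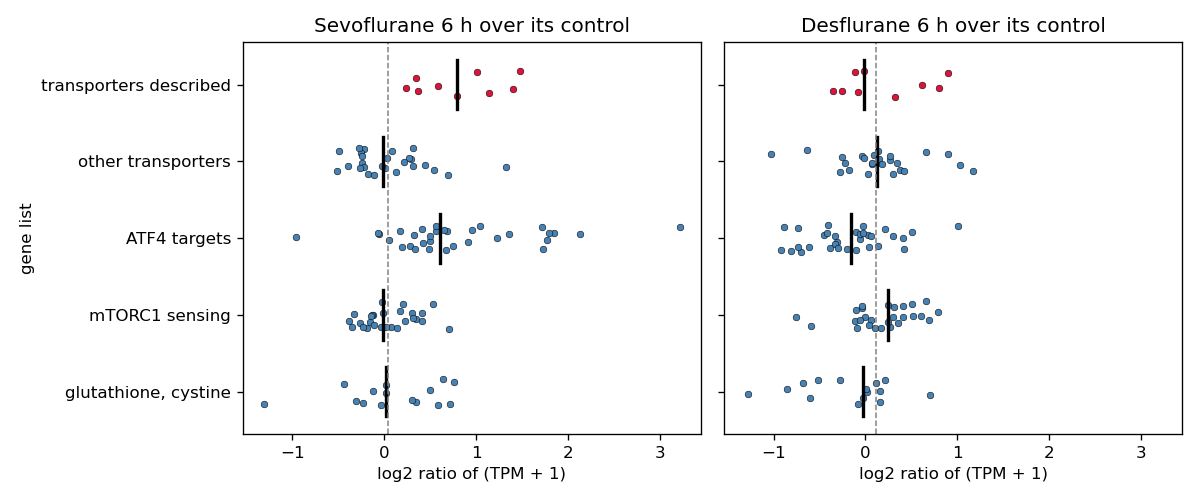
Log2 ratios of the TPM values plus 1 to the respective control for genes of 5 lists that had a TPM value higher than 2 in any library, with sevoflurane on the left and desflurane on the right; each point is a gene, black bars are list medians, and the dashed line is the median of all 9993 genes. The bars of the 9 transporters and of the ATF4 targets lie at 0.80 and 0.61 with sevoflurane and at -0.02 and -0.16 with desflurane.

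Lists of neighbouring functions were counted by the same rule. Of all genes, 2.23% were up and 3.3% down with sevoflurane, and 2.79% and 1.48% with desflurane. Of 28 measured genes of amino acid sensing by mTORC1, the kinase complex that leucine and arginine activate, none was up or down with sevoflurane and 1 was up with desflurane. This was *Castor1*, an arginine sensor, with TPM values of 0.834 (control) and 1.99 (6 hours) for sevoflurane, and of 0.949 and 2.37 for desflurane. Of 17 genes for glutathione synthesis and cystine or cysteine handling, none was up with either agent and 1 was down with both. This was *Gclm*, the modifier subunit of the enzyme that joins glutamate and cysteine, which was 2.49-fold lower with sevoflurane and 2.44-fold lower with desflurane from control TPM values of 252 and 180. With the controls exchanged, the ratio of *Gclm* was 0.563 with sevoflurane, which did not pass the limit, and *Gss* and *Srxn1* were up with 2.41-fold and 2.04-fold higher levels. *Cdo1*, which oxidizes cysteine and was the most abundant of these genes, had TPM values of 1106, 816, 1012, and 1094.

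The tables also hold transcripts that StringTie assembled from the same reads without gene names, and these give a second view of the 9 genes. Between 40.3% and 42.5% of annotated rows with a TPM value higher than 2 had an assembled row with exactly the same start and end, and between 85.9% and 88.7% of these had a TPM value within 1% of the annotated row. For *Slc3a2*, *Slc38a2*, and *Slc38a3*, the assembled row had the span of the annotated row in all 4 libraries. The assembled rows of *Slc7a1* were broken into 2 or 3 pieces in every library, and the largest piece was 1.49-fold higher after desflurane than in its control, compared with a ratio of 0.627 by the annotated row. The span of this largest piece differed between the libraries. *Slc7a11* had no assembled row in the sevoflurane control and after 6 hours of desflurane. The assembled row of *Slc38a4* ended between 17.8 and 17.9 kb short of the annotated 5′ end in all 4 libraries and reached between 1.95 and 2.01 kb beyond its 3′ end, and the TPM value of this row was 362, 459, 362, and 450. For *Slc7a2*, the assembled row had the annotated span in 3 libraries, but after 6 hours of desflurane it reached 6.12 kb beyond the 3′ end with a TPM value of 187, compared with 252 for the annotated row. The ratio to the desflurane control was 1.26 by the assembled rows and 1.75 by the annotated rows.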

How the data were processed

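RNA from 4 rat livers, 1 for each condition, was analysed. Groups follow the sample labels. The authors trimmed the reads with sickle, mapped them to rn6 with HISAT2, sorted them with SAMtools, and quantified them with StringTie and the refGene annotation. The deposited tables hold the average coverage per gene, a signal that is not scaled for library size, FPKM values that the authors' StringTie run scaled for library size, and TPM values. The deposited TPM is a signal scaled so that the assembled rows add up to 1000000, and annotated rows are on the same scale. Rows of 200 bp or shorter were removed, and TPM values were summed by symbol. Read counts were not used here, so counting intervals were not calculated. Depth came from comparing FPKM with coverage over genes.

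The transporters and gene lists were chosen with earlier results of these data known. Named genes are the 10 transporters, the 5 most abundant other transporters and those past the limits, the 2 most abundant genes and the genes with the largest ratios of the other lists, and the 3 nearest genes by pattern. The alternatives covered the TPM and fold limits, a pseudocount, scaling, FPKM, row handling, coverage, and the control. Python 3.11.15 with pandas 2.3.3, numpy 2.4.6, and matplotlib 3.10.9 was used, and the counting rule was tested on simulated data.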

Additional observations from a re-analysis of the deposited data

Results flagged for a closer look

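Of the 9 transporters, 4 passed the limits with sevoflurane and had a TPM value below the control with desflurane. The log2 change with sevoflurane minus that with desflurane was 2.73 for *Slc7a1*, 1.26 for *Slc7a5*, 5.57 for *Slc7a11*, and 1.17 for *Slc3a2*. With 1 library per state, this difference was not tested. For *Slc3a2* and *Slc7a5*, the value with desflurane lay just above that of the sevoflurane control, at ratios of 1.01 and 1.09, so the opposite direction depended on the control. For *Slc7a1*, the direction with desflurane reversed by the largest assembled row, with a log2 ratio of 0.58, but the span of this row differed between libraries. The value of *Slc7a11* rests on desflurane libraries with a coverage of 0.441 and 0.0640, too low to read a size from it. On the scale of log2 (TPM + 1), the differences were 1.76 for *Slc7a1* and 1.73 for *Slc7a11*.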

How the results depend on the processing

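The counts of transporters were repeated under 15 alternatives, of which 1, the use of the largest assembled row, was chosen after seeing the data. Of 67 repeated counts, 4 moved by more than 1.5 times. With a TPM limit of 5, 2 transporters were up with sevoflurane (*Slc3a2* and *Slc7a5*), whereas a fold limit of 3 left 2 (*Slc7a1* and *Slc7a11*). FPKM values in place of TPM gave the same genes as the TPM limit of 5, because the limit of 2 was kept. After sevoflurane, *Slc7a1* and *Slc7a11* had FPKM values of 1.70 and 1.06, below this limit. Their log2 ratios by FPKM were 2.01 and 2.89. With a fold limit of 1.5, 3 were up with desflurane (*Slc38a3*, *Slc43a1*, and *Slc7a2*). Of 178 repeated log2 ratios of single transporters, 172 kept their sign, and the other 6 were all ratios with desflurane. With the controls exchanged, *Slc7a5*, *Slc3a2*, and *Slc38a2* had log2 ratios of 0.12, 0.02, and 0.03. With assembled rows added, those of *Slc7a1* and *Slc7a2* were 0.41 and -0.22, and with the largest assembled row that of *Slc7a1* was 0.58. Assembled rows repeat reads of the annotated rows, so that their addition counts these reads again. Rows that reached beyond the annotated span were not added. For *Slc7a2*, this left out the row after 6 hours of desflurane but not that of its control, so the value of -0.22 compares unlike sums. A pseudocount of 1 reduced the log2 ratio of *Slc7a11* with sevoflurane from 2.94 to 1.48 and that of *Slc7a1* from 2.06 to 1.40. The genes higher than both controls with both agents numbered between 3 and 5, and *Slc38a3*, *Slc7a2*, and *Slc7a1* entered or left with FPKM or assembled rows. Limits on TPM, fold, and coverage and the choice of control do not enter the count of genes higher than both controls. No paired analysis was possible because each condition has 1 library, and no replicate could be left out.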
